A study of Mus musculus with 4 samples.

Results

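Foxo1 binding was examined in mouse genome windows set around 6 genes of effector and regulatory T cells, namely Ctla4, Foxp3, Tbx21, Bcl6, Prdm1 and Nr4a3. A peak was assigned to a window when its summit, the position of highest signal, lay inside it. Of the 3230 peaks in the antibody and biotin lists together, 8 lay in the windows, and all 8 came from the antibody list (8 of 2507 antibody peaks and 0 of 723 biotin peaks). They fell in the windows of Nr4a3 (4 peaks), Bcl6 (2) and Prdm1 (2), and the windows of Ctla4, Foxp3 and Tbx21 held 0 peaks of either list. The windows were selected on the peak positions and folds of these same lists, so the counts and folds below describe the peaks and are not tests.

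The data are chromatin immunoprecipitation followed by sequencing (ChIP-seq) of Foxo1 in CD4+ T cells, with 4 samples and 1 library in each group. The antibody ChIP used C57BL/6 cells and an antibody against Foxo1. The biotin ChIP used cells of Foxo1tagBirA mice, whose strain is also given as C57BL/6. In these mice Foxo1 carries a tag that the bacterial ligase BirA can biotinylate, and the protein was captured on streptavidin, a protein that binds biotin. Each ChIP has its own input sample. The labels give no age, sex, activation state or subset of the CD4+ cells, and no promoter for BirA. A CD4+ preparation can hold conventional and Foxp3-expressing regulatory cells, whose shares the peak lists cannot give. With 1 library in each group there is no replicate error for any value. The lists hold no read counts, so the depth behind a peak is unknown. No signal of either input library was used here.

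Foxo1 is a forkhead transcription factor. It is nuclear when signalling through PI3K and Akt is low, and is phosphorylated and exported from the nucleus when T cells receive antigen and costimulatory signals. In T cells it is known for keeping naive cells quiescent and able to recirculate, and for a part in regulatory T cell development and function. Among the 6 genes, Ctla4 encodes an inhibitory receptor that competes with CD28 for its ligands. Foxp3 encodes the forkhead factor that defines regulatory T cells. Tbx21 encodes T-bet, the T-box factor of type 1 helper cells. Bcl6 encodes the zinc-finger repressor needed by follicular helper T cells, and Prdm1 encodes Blimp-1, a repressor found in effector cells that acts in opposition to Bcl6. Nr4a3 encodes an orphan nuclear receptor of a family induced by T cell receptor signalling.

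FOXO proteins recognise DNA with the core GTAAACA. RefSeq promoter sequences (GRCm38.p6, 250 bases before to 50 after a start) were found for all 6 genes, with 8 promoters in all. GTAAACA, searched on both strands, was present in 1 of the 8, a promoter of Prdm1, and in 3.65% of the 32851 promoters in the table. The related ATAAACA was added as a second form, and either form was present in 2 of the 8 promoters, those of Prdm1 and Foxp3, and in 7.97% of all promoters. The upstream 250 bases of both are shown, since they belong to a gene with peaks in its window and a gene without, and the match is in capitals. The Prdm1 stretch is chr10:44458749-44458998 on the minus strand and the Foxp3 stretch chrX:7579426-7579675 on the plus strand, both in GRCm38.p6.
Prdm1: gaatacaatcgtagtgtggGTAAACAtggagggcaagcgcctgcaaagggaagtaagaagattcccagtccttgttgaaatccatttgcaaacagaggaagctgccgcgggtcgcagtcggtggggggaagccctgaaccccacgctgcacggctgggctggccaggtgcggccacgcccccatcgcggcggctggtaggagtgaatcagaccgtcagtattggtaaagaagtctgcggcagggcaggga
Foxp3: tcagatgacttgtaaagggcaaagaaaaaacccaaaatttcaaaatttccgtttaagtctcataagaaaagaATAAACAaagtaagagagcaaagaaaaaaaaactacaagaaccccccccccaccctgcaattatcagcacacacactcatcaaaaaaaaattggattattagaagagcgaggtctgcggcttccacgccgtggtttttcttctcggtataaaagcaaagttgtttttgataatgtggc
The Prdm1 match begins 231 bases before the annotated start and the Foxp3 match 178 bases before it. These positions follow another build than the peaks, which are in mm9, so whether a peak covers either match was not analysed here. The sequences under the 8 peaks were not analysed here either. A match describes the letters only, and the promoters of Ctla4, Tbx21, Bcl6 and Nr4a3 held neither form in this 300-base stretch.

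The windows were 118 to 192 kb long and spanned 827 kb in total. As a background, the part of each chromosome between its outermost peaks was divided into 19700 stretches of 126.5 kb, the median window length. Of the 6 windows, 3 held an antibody peak, against 9.45% of the stretches. At least 2 antibody peaks were found in 3 windows and in 2.3% of the stretches, and at least 4 in 1 window and in 0.142%. A biotin peak was found in 0 windows and in 3.34% of the stretches. The windows were picked with the peaks known, so nothing is read from these shares. They do show that most stretches of this length held 0 peaks in either list, as the Ctla4, Foxp3 and Tbx21 windows did.

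**Figure D1:**
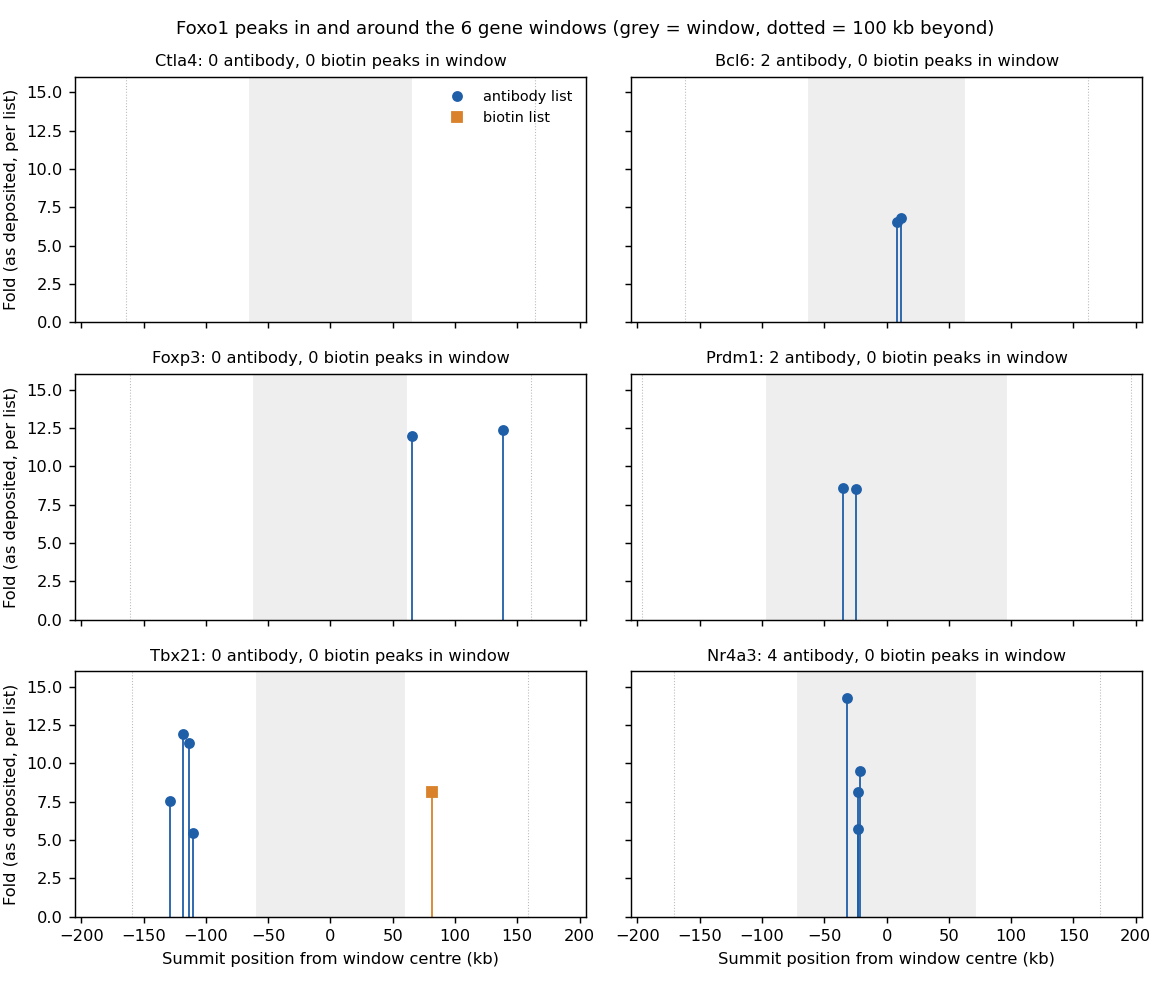
Summit position in kb from the window centre (x axis) and deposited fold (y axis) of every antibody peak (circles) and biotin peak (squares) in the 6 windows (grey) and up to 100 kb beyond them (dotted lines). Peaks inside a window are seen for Bcl6, Prdm1 and Nr4a3 only, Foxp3 and Tbx21 have peaks outside it, and Ctla4 has none in the range drawn.

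Nr4a3 had the most peaks. Its window (chr4:48008000-48150000, mm9) held 4 antibody peaks within 10045 bp, counted from the first summit to the last. Peak 1 (chr4:48047366-48047437, 72 bp) had a fold of 14.3, the highest of the 8 peaks, and 22.4% of antibody peaks had a higher fold. The fold is the authors' own linear value for each peak, and the reference it was computed against is not stated. Peak 2 (chr4:48055621-48055736) had a fold of 5.71, the lowest of the 8. Peak 3 (chr4:48056322-48056370) had a fold of 8.15 and peak 4 (chr4:48057411-48057494) one of 9.52. The peak of highest fold at Nr4a3 thus stood alone, with a fold 2.50 times that of peak 2, and the other 3 formed a tight group 8307 bp further along.

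Within that group, summits of peaks 2 and 3 were 644 bp apart and those of peaks 3 and 4 were 1094 bp apart. All 3 lay within 1738 bp. Such spacing was rare in the antibody list. Only 6 of 2507 peaks (0.239%) had at least 2 other antibody summits within 2 kb, a distance chosen after the spacing at Nr4a3 was seen. The other 3 formed a group on chromosome 10, with summits within 1430 bp and folds of 14.2, 9.34 and 29.0, and its strongest peak (chr10:41998103-41998130) overlapped a biotin peak. The 3 close peaks at Nr4a3 overlapped 0 biotin peaks. Whether close peaks are separate sites or parts of a broader one was not tested.

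At Bcl6 the window (chr16:23915000-24039000) held a pair of antibody peaks with folds below the list median of 9.43. Peak 1 (chr16:23984980-23985089) had a fold of 6.56 and peak 2 (chr16:23988531-23988692) one of 6.83, with summits 3626 bp apart. Higher folds were found for 80.0% and 77.5% of the antibody list. Peak 2 was the widest of the 8 at 162 bp, and 8.14% of antibody peaks were wider. At Prdm1, the gene of the opposing repressor, the window (chr10:44107000-44299000) also held 2 peaks. Peak 1 (chr10:44168013-44168132) had a fold of 8.57 and peak 2 (chr10:44178750-44178828) one of 8.51, with summits 10736 bp apart. Both Prdm1 folds were above both Bcl6 folds and below the list median of 9.43. Within each pair the higher fold was 1.04 times the lower at Bcl6 and 1.01 times at Prdm1, whereas the 4 folds at Nr4a3 were spread more widely.

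**Figure D2:**
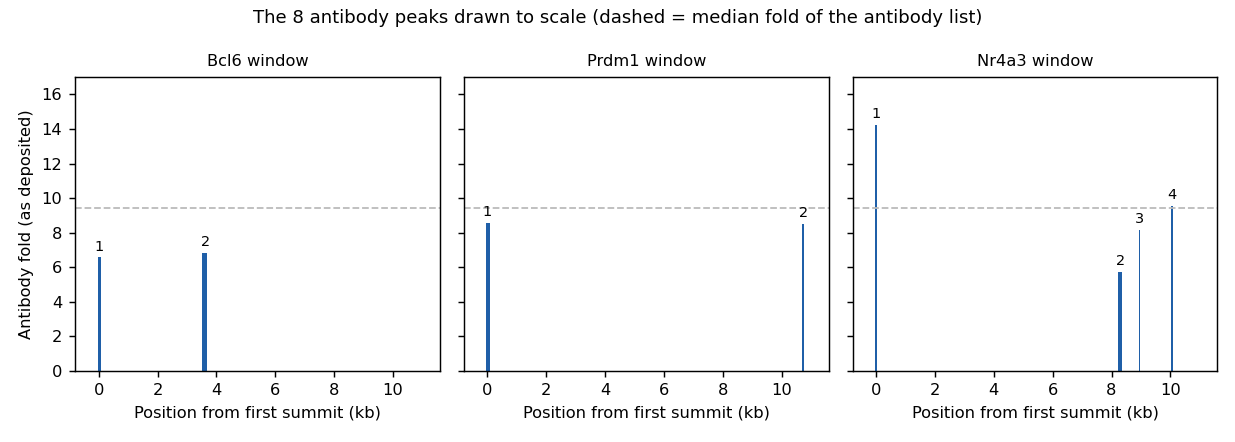
The 8 antibody peaks, with position in kb from the first summit of each window (x axis) and deposited fold (y axis). Bar width is the peak width to scale, numbers are the peak numbers used in the text, and the dashed line is the antibody list's median fold of 9.43, which peaks 1 and 4 of Nr4a3 exceed.

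All 8 peaks had another antibody peak close by. Each had at least 1 other antibody summit within 15 kb, against 22.7% of all antibody peaks. The 15 kb were chosen after the spacings were seen, and each peak's neighbour is itself among the 8. The next antibody peaks lay outside the windows. The nearest antibody summit outside the Bcl6 window lay 686855 bp below its lower edge, that of Prdm1 118762 bp below it, and that of Nr4a3 336262 bp above its upper edge.

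Peak 1 of Nr4a3 was above the upper quartile of the antibody list by fold, and the other 7 peaks were below it. The 8 folds ran from 5.71 to 14.3, with a median of 8.33, against 9.43 for all 2507 peaks (interquartile range 7.06 to 13.5). Peaks 1 and 4 of Nr4a3 were above the list median and the other 6 below it. By rank, peak 1 of Nr4a3 stood at 563 and peak 2 at 2225. Peak widths of 49 to 162 bp (median 97 bp) compare with a list median of 90 bp (interquartile range 61 to 118 bp). The folds were known when the windows were proposed, so their level is given as a description.

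**Figure D3:**
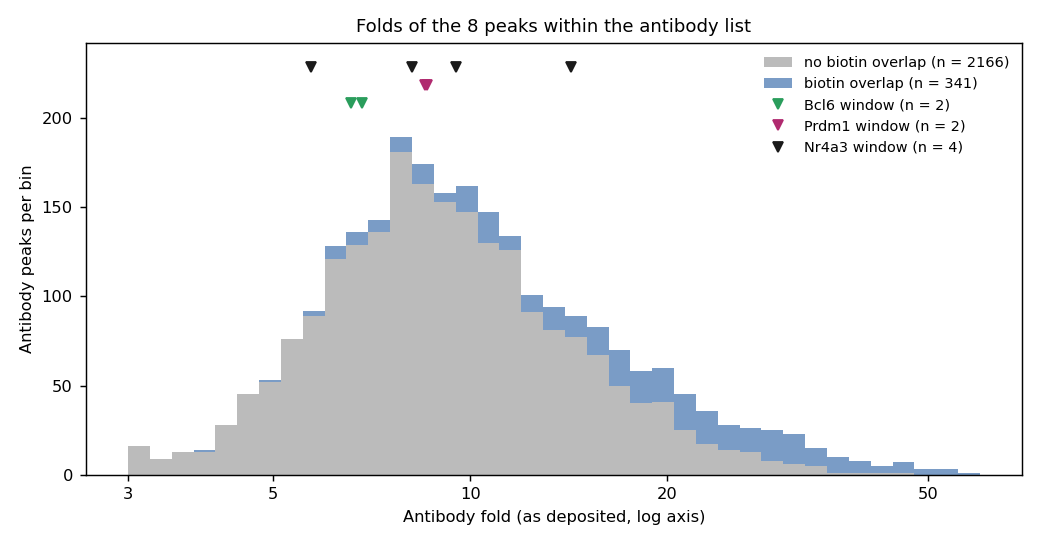
Number of antibody peaks per bin (y axis) by deposited fold (x axis, log scale), split into 341 peaks that overlap a biotin peak (blue) and 2166 that do not (grey). Triangles mark the peaks of the Bcl6, Prdm1 and Nr4a3 windows, which lie between folds of 5.71 and 14.3, below the range where overlap with the biotin list is common.

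The deposited p-values split the 8 peaks further. Peak 1 of Bcl6 had a p-value of 2.67e-12, peak 2 of Nr4a3 one of 1.34e-12 and peak 3 of Nr4a3 one of 4.70e-12. These 3 of the 8 peaks were above 1e-12, as were 12.9% of the antibody list, whose largest value was 7.49e-12. They therefore lay near the limit at which the list ends. Peak 2 of Bcl6, peak 1 of Prdm1 and peak 1 of Nr4a3 shared a p-value of 2.22e-16. That value was held by 16.9% of the antibody list, and 26.4% of the list had a lower one. Peak 4 of Nr4a3 had 6.66e-16 and peak 2 of Prdm1 had 1.22e-15. Each of the 3 windows thus held at least 1 peak far from the limit. All p-values are the authors' own. In the antibody list 406 peaks had a p-value listed as 0, and values near 2.22e-16 are at the limit of numeric precision. The order among the smallest values is not read here.

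The comparison of both isolation methods asks whether sites recovered with the antibody were also recovered with biotinylated Foxo1. None of the 8 peaks overlapped a biotin peak by at least 1 bp (0 of 8, against 13.6% of all antibody peaks). A common set of 682 intervals was deposited under the antibody input, and 0 of the 8 had the same start and end as any of them. This is not counted as a separate result. Whether the 341 antibody peaks that overlap a biotin peak match the common set in this way is not reported here. The 0 alone therefore does not check the overlap. The distance to the nearest biotin peak was 450553 bp for peak 1 of Prdm1, 877383 bp for peak 1 of Bcl6 and 2527000 bp for peak 1 of Nr4a3. Around these 3 genes the biotin list thus had 0 peaks in a far wider neighbourhood than the windows. The biotin list is sparse, with 0.290 peaks per Mb, and whether distances of this size are particular to these genes was not analysed here. Of the stretches with at least 2 antibody summits, 41.3% also held a biotin summit, and 0 of the 3 windows with at least 2 did. Nothing is read from these counts, since both lists were used to propose the windows.

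Across the antibody list, overlap with the biotin list varied with fold. Of the 1663 antibody peaks with folds from 5.71 to 14.3, 6.92% overlapped a biotin peak, against 39.7% of the 562 with a higher fold. Among the 324 antibody peaks with a p-value above 1e-12, 2.16% did. In the bin of folds from 12.3 to 15.1, which holds peak 1 of Nr4a3, 12.8% of 250 peaks overlapped (exact Clopper-Pearson 95% interval 8.92 to 17.6%). In the bin of folds from 5.53 to 6.57, which holds peak 1 of Bcl6 and peak 2 of Nr4a3, the share was 4.38% of 251 (2.21 to 7.71%). The intervals cover counting error over peaks only. Absence from the biotin list does not show absence of binding, since reads below its threshold were not analysed here.

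**Figure D4:**
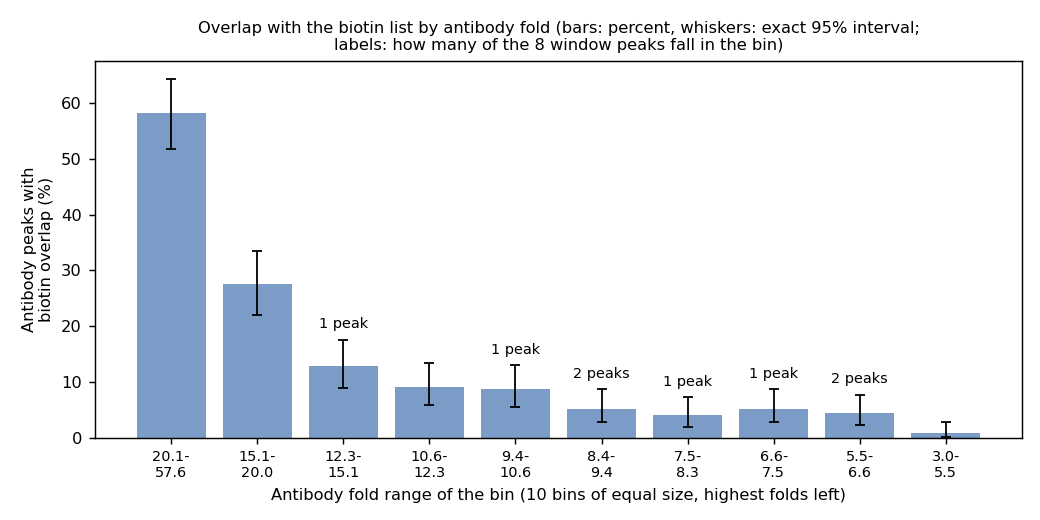
Percent of antibody peaks that overlap a biotin peak (y axis) in 10 bins by deposited antibody fold (x axis, highest folds on the left), with exact 95% intervals as whiskers. Labels count the 8 peaks of the windows in each bin, and 0 of them fall in the leftmost pair of bins, where the share is highest.

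Among the windows with 0 peaks, that of Ctla4 (chr1:60894000-61023000) had the longest distance to its nearest antibody peak. The summit of that peak (chr1:61459275-61459276) lay 436276 bp above the upper edge. It was a very narrow call with a fold of 3.17, close to the lowest fold of the antibody list, 3.01. On the other side the nearest summit was 738887 bp below the lower edge, with a fold of 7.80. Its nearest biotin summit was 2137907 bp above the upper edge, closer than the 5702347 bp between the Foxp3 window and its nearest biotin summit. In the RefSeq gene order Ctla4 stands between Cd28, the costimulatory receptor gene, and Icos, that of a related costimulatory receptor.

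The empty call at Foxp3 (chrX:7100000-7222000) rests on the window's edge. An antibody peak (chrX:7226242-7226367) with a fold of 12.0 had its summit 4294 bp above the upper edge, and windows widened by 25 kb on each side gave Foxp3 1 antibody peak in place of 0. A second antibody peak (chrX:7299306-7299387), with a fold of 12.3, lay 77356 bp above the edge. Both folds are higher than those of 7 of the 8 peaks inside windows, and neither peak overlapped a biotin peak. By position, and not by fold, these were the 2 lowest antibody peaks on chromosome X, which held 44 antibody and 11 biotin peaks. In the RefSeq gene order Foxp3 lies between Ppp1r3f and Ccdc22, and which gene the outer peaks belong to was not analysed here.

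Tbx21 (chr11:96909000-97027000) had peaks on either side of its window. The nearest was a biotin peak (chr11:97049176-97049239) with a fold of 8.16, 22206 bp above the upper edge, and 20.5% of biotin peaks had a higher fold. It overlapped 0 antibody peaks, and windows widened by 25 kb took it in. On the other side, 4 antibody peaks with folds of 7.56, 11.9, 11.4 and 5.48 lay 51096 to 69762 bp below the lower edge, and 0 of them overlapped a biotin peak. The lists name no genes, so these peaks are given by position only. Within the windows, the peak nearest to an edge was peak 1 of Nr4a3, with its summit 39394 bp inside.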

How the data were processed

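Foxo1 ChIP-seq peak lists from CD4+ T cells were used, 1 for the antibody ChIP, 1 for the biotin ChIP and a common set attached to the antibody input. Positions are in build mm9, and Bowtie 0.12.7 and CASAVA 1.4 are named as tools, per the submitters' processing notes. For the peak caller, a name was not given in the sources used here. A false discovery rate of 0.05 is stated in the names of both ChIP lists. Each peak's fold (a linear ratio) and p-value are the authors' values as deposited, per the file headers. The common set has no header and was read in the same column order. Folds were ranked within a list and not compared between lists.

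In the antibody list 0 summits fell on a start position and 58 on an end position (0 and 10 in the biotin list), so starts were raised by 1 to count from 1. Window limits came from the rule that defines the set, and peaks were assigned by summit. Peaks were shared when they overlapped by at least 1 bp. The members, windows and lists were chosen with earlier results of these data known. By the rule for named genes, every peak in the windows is named. No statistical test was made, as the windows were chosen on these peaks and each group has 1 library. Alternatives were other window widths, any base in place of the summit, the top 50% by fold, merging of summits within 1000 bp, other definitions of overlap, rank by p-value and other motif forms. The code that counts overlaps and window members was checked on simulated lists with planted peaks. The planted peaks were exact copies, so the check did not cover partial overlaps. No mm9 annotation was used here, so peaks are not placed in exons, introns or promoters. Gene order and promoter sequences are from RefSeq (GRCm38.p6). Python 3.11.15, pandas 2.3.3, scipy 1.17.1 and matplotlib 3.10.9 were used.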

Additional observations from a re-analysis of the deposited data

How the results depend on the processing

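Both lists hold only peaks past the authors' threshold, and their depth is unknown, so a missing peak cannot be read as missing binding. The count of 8 antibody peaks was the same with any base in the window and with windows narrowed by 25 kb. It was 9 with windows widened by 25 kb, through the peak beside Foxp3, and 7 with summits within 1000 bp counted as 1. That merging left 3 peaks at Nr4a3 in place of 4. In the top 50% of each list by fold the antibody count was 2, both at Nr4a3, since the other 6 were below the median fold. With windows widened by 25 kb the biotin count was 1 in place of 0, through the peak beside Tbx21. The median share of the antibody list ranked above the 8 peaks was 60.4% by fold and 58.0% by p-value, and the cause of the difference was not tested. Single peaks moved far more, but the smallest p-values lie at the limit of numeric precision, with 406 antibody peaks listed at 0. Ranks by p-value among the peaks with the smallest values are therefore coarse. By fold and then by p-value, peak 2 of Bcl6 went from 77.5% to 26.4% and peak 1 of Prdm1 from 57.5% to 26.4%. Peak 3 of Nr4a3 went from 62.3% to 96.4%. The 26.4% is the top edge of a tie that held 16.9% of the antibody list. Both shifts to it are thus the largest the tie allows. The count of the 6 genes with a motif match was 0 for GTAAACAA and 2 with ATAAACA added, against 1 for GTAAACA, which follows from the stricter and looser forms. The overlap with the biotin list was 0 under all 4 other settings tried. The nearest biotin peak was at least 450553 bp away, so none of these settings could have given another count. No paired analysis was possible because the groups have no replicates, which also leaves none to omit.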

Other observations

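Other genes of effector and regulatory T cells were looked up in the RefSeq promoter table from a list of 26, of which 18 had an entry, with 22 promoters. GTAAACA or ATAAACA was present in 0 of the 22, against 7.97% of all 32851 promoters. At that share 22 promoters are too few for a lack of the motif to be read from the 0. The list of 26 includes Il2ra, the gene of the interleukin 2 receptor alpha chain, and Ifng, that of interferon gamma. It was not chosen for its promoters. Which of the 26 had an entry is not given here, so the 0 cannot be assigned to a named gene. Whether peaks lie near these genes was not analysed here.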
